A study of Mus musculus with 6 samples.

Results

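The genes described here are 48 genes of the cell division cycle and of adult neurogenesis, taken by their symbols from 23282 entries in the count tables. Each was measured in 3 libraries from mice fed a normal chow diet (NCD) and 3 libraries from mice fed a high-fat diet (HFD). The animals were wild-type C57BL/6J males aged 8 to 10 weeks, and both diets were given for 10 days, the HFD with 60 kcal% fat. The tissue was a forebrain hemisphere from which olfactory bulb and cerebellum had been taken off, and the comparison asked which transcripts differ after this short diet.

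A cell divides when cyclins, whose levels rise and fall, switch on the cyclin-dependent kinases (CDKs) that they bind. D and E type cyclins carry a cell through G1 into DNA synthesis, A and B type cyclins carry it into mitosis, and CDK inhibitors hold it back. In the adult rodent forebrain most neurons no longer divide, and division goes on mainly in the subventricular zone, the hippocampal subgranular zone and among oligodendrocyte precursors. Neuroblasts from the subventricular zone migrate to the olfactory bulb and carry doublecortin (Dcx) and Dlx factors, whereas Eomes (Tbr2) marks glutamatergic intermediate progenitors and is also kept in mature mitral and tufted cells of the bulb.

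The 48 genes were sorted by role into 9 G1 and S phase genes, 2 CDK inhibitors, 9 DNA replication genes, 4 G2 and mitotic cyclin genes with Cdk1, 18 genes of the mitotic apparatus and 6 neurogenesis genes. All 48 had at least 1 count, and 38 passed the count filter and entered the test, with 13771 genes in all. The 10 genes under the filter were Cdk6, Rrm2, Cdk1, Ccnb1, Ccnb2, Aspm, Bub1, Bub1b, Aurkb and Ube2c, and their fold changes come from a fit without the filter. The p-values of that fit can understate the spread between libraries. In it the pituitary transcript Prl, with 2, 0 and 956 counts with HFD, had an unadjusted p of 3.24e-30 (edgeR). Since a gene could pass through one diet alone, counts over the genes tested leave out the lowest genes.

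The libraries held 6842785 to 9689372 counts. Forebrain markers were present, the 7 forebrain markers summing to 690.3 to 808 CPM (read counts scaled to a common library size, with TMM factors), and of 5 genes used as cerebellar markers, Gabra6 and Cbln3 of granule cells were at 0 to 0.969 CPM, while Pcp2, Cbln1 and Calb1 averaged 16.4, 19 and 107 CPM (no unadjusted p under 0.05). The summed olfactory bulb markers were highest in NCD replicate 2 and then in HFD replicate 2. HFD replicate 3 stood apart by 1090 CPM of growth hormone (Gh), a pituitary transcript at 1.31 to 7.65 CPM in the other libraries. In bulk tissue, fewer cells of a type and less RNA per cell cannot be told apart, and no source here says whether the 3 libraries of a diet came from separate animals, so that p-values measure only the spread between these libraries.

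Promoter letters are shown first because a pair of motifs, described below, was found most often in the mitotic genes. Windows of 300 bases, from 250 before to 50 after the RefSeq start site (GRCm38.p6), were given for 41 of the 48 genes. Missing from the table were Ccna2, Ccnd1, Ccnd2, Ccne2, Mcm4, Aurkb and Tpx2. A set of 3 motifs was searched on both strands. The cell cycle genes homology region (CHR, TTTGAA or TTCGAA) and the CCAAT box (CCAAT) are known from promoters of G2 and M phase genes, and the E2F site (TTTCCCGC, TTTGGCGC, TTTCGCGC or TTTGCCGC) from genes of DNA synthesis. Neighbouring matches may share letters, as E2F matches on opposite strands do, and TTCGAA reads the same on both strands. In the stretches below, written 5′ to 3′ from 20 bases before the first match to 20 bases after the start site, capitals mark the matches, with ATTGG and GCGGGAAA as the reverse complements of CCAAT and TTTCCCGC. Mki67 lies at chr7:135716360-135716587 (minus strand), Aspm at chr1:139454640-139454792 (plus strand), Cdk1 at chr10:69352893-69353140 (minus strand), Cdc20 at chr4:118437324-118437416 (minus strand), Cdk2 at chr10:128705032-128705211 (minus strand) and Mcm6 at chr1:128359686-128359835 (minus strand).
Mki67: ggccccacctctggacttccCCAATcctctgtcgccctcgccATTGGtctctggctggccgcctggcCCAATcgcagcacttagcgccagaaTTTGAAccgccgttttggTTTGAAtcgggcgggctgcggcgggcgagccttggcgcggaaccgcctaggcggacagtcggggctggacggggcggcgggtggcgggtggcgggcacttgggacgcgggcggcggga
Aspm: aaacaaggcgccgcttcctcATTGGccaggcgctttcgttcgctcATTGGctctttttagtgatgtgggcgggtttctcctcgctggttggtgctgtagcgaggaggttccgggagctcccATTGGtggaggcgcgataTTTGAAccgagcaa
Cdk1: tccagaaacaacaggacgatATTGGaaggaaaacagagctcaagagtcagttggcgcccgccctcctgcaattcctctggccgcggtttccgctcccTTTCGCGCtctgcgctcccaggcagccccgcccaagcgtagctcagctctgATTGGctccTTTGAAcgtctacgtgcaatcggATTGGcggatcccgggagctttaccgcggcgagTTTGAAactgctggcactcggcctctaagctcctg
Cdc20: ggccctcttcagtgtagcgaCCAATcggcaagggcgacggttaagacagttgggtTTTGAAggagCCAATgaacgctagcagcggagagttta
Cdk2: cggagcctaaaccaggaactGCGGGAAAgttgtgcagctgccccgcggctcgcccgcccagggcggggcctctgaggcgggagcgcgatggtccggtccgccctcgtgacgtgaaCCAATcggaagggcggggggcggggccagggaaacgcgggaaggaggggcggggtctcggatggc
Mcm6: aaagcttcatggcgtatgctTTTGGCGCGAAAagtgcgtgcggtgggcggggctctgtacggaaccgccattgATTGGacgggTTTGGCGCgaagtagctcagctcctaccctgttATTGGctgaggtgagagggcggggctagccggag
Mki67, Aspm, Cdk1 and Cdc20 carried both a CHR and at least 1 CCAAT box. In Mcm6, 1 run of letters held an E2F match on each strand, and Cdk2 had an E2F match and a CCAAT box but no CHR.

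A CHR together with a CCAAT box was found in 14 of 16 mitotic apparatus genes with a window (87.5%), against 8.6% of 27025 genes in the whole promoter table. The pair was also in 2 of 3 G2 and mitotic cyclin genes with Cdk1, 2 of 8 DNA replication genes and 1 of 6 neurogenesis genes. It was in 0 of 6 G1 and S phase genes and 0 of 2 CDK inhibitors. Singly, a CHR was in 21.7%, a CCAAT box in 41.1% and an E2F site in 2.6% of all genes. In 13 of the 14 genes a CHR began between 40 bases before and 50 bases after the start site, while both CHRs of Mki67 lay farther upstream. Of the 8 DNA replication genes with a window, all held a CCAAT box and 4 an E2F site (Mcm3, Mcm5, Mcm6 and Mcm7). These are letter matches, described without a test, and say nothing of which factor was bound in this tissue.

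**Figure D1:**
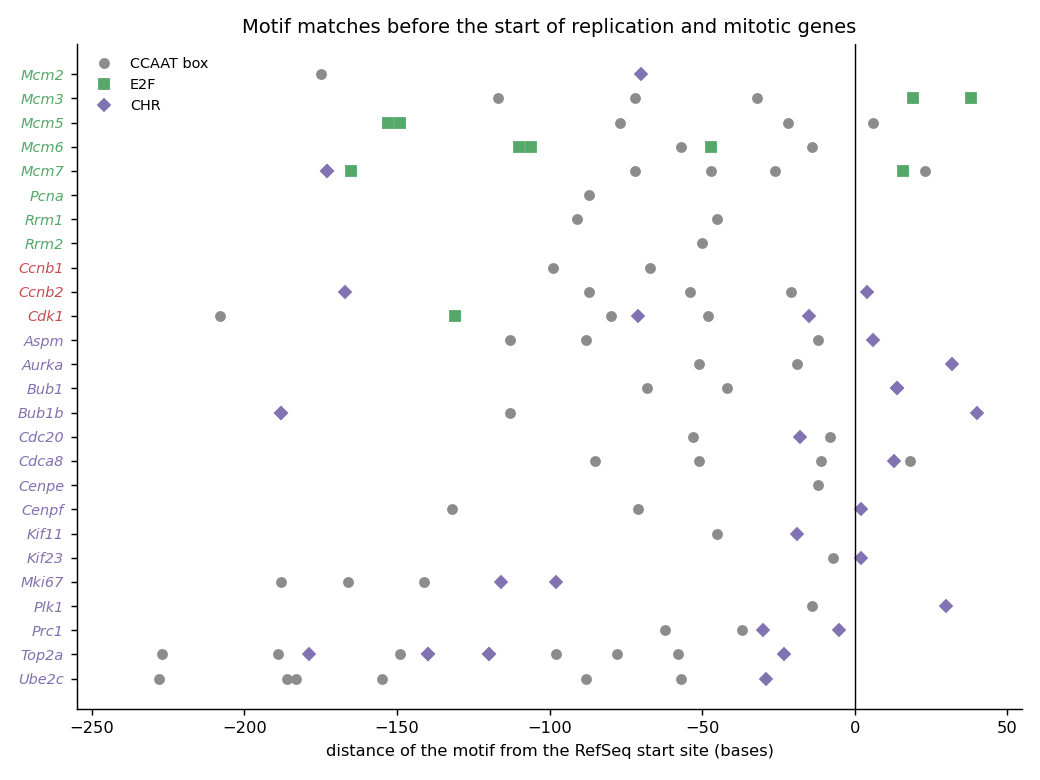
Distance from the RefSeq start site (x axis, bases, start at 0) of CCAAT box (grey circles), E2F (green squares) and CHR (purple diamonds) matches in genes of DNA replication (green names), G2 and mitotic cyclins with Cdk1 (red names) and the mitotic apparatus (purple names). Genes with no match or no window are not drawn, and CHR matches of the mitotic genes gather near 0.

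Most of the cell cycle genes were scarce in this tissue. The median level of the 48 genes was 2.96 CPM against 21.7 CPM over all genes tested, and 25 genes were under 3 CPM, among them all 18 genes of the mitotic apparatus. Since the libraries were made to give tags near the 3′ end of each transcript, these levels are not divided by length. Highest were Ccnd2 (117 CPM), Sox11 (83.7 CPM), Ccnd1 (80.9 CPM), Cdkn1b (51.1 CPM) and Sox4 (48.3 CPM). Lowest was Cdk6, with 3 counts in HFD replicate 2 and none in the other libraries, where a count of 0 allows up to 0.316 to 0.431 CPM (3 counts, counting error only).

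**Figure D2:**
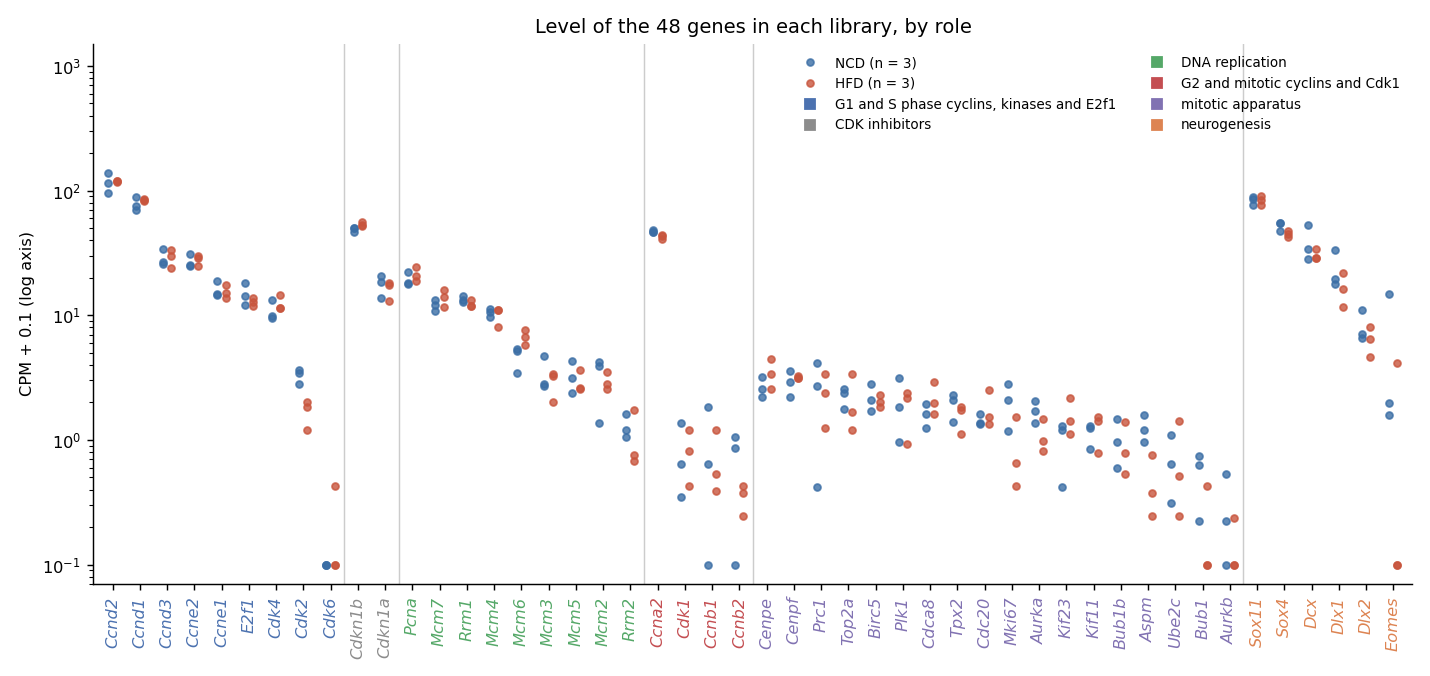
Level of each of the 48 genes (y axis, CPM + 0.1 on a log axis) in the 3 NCD (blue) and 3 HFD (red) libraries, ordered by level within each role. Ccnd2, Sox11 and Ccnd1 lie highest, between 69.3 and 137.4 CPM, the mitotic apparatus genes reach at most 4.39 CPM, and genes at 0 lie on the value 0.1.

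Of the 38 genes tested, 4 were lower on the HFD at an unadjusted p under 0.05 and 0 were higher. Over all genes tested, 1.98% were lower and 1.71% higher at that threshold (edgeR quasi-likelihood test). With a fold of at least 1.5 as well, 3 genes were lower (Cdk2, Mki67 and Eomes; background 0.748%) and 0 higher (background 0.53%). Eomes had 0 counts in 2 HFD libraries and passed the filter through the NCD libraries, where it was higher. Its place among the lower genes is therefore not separate from the filter. None of the 38 genes passed an adjusted p of 0.05 (background 0%; Benjamini-Hochberg over 13771 genes, 0 genes in all). DESeq2 also gave 0 members an adjusted p under 0.05, with 2 members lower by fold and unadjusted p. The median log2 fold change of the 38 genes was -0.08, against -0.0025 over all genes tested. Without the filter, 5 of the 48 genes had an unadjusted p under 0.05, all lower, against 4.76% of 18936 genes in either direction, the fifth being Dcx.

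**Figure D3:**
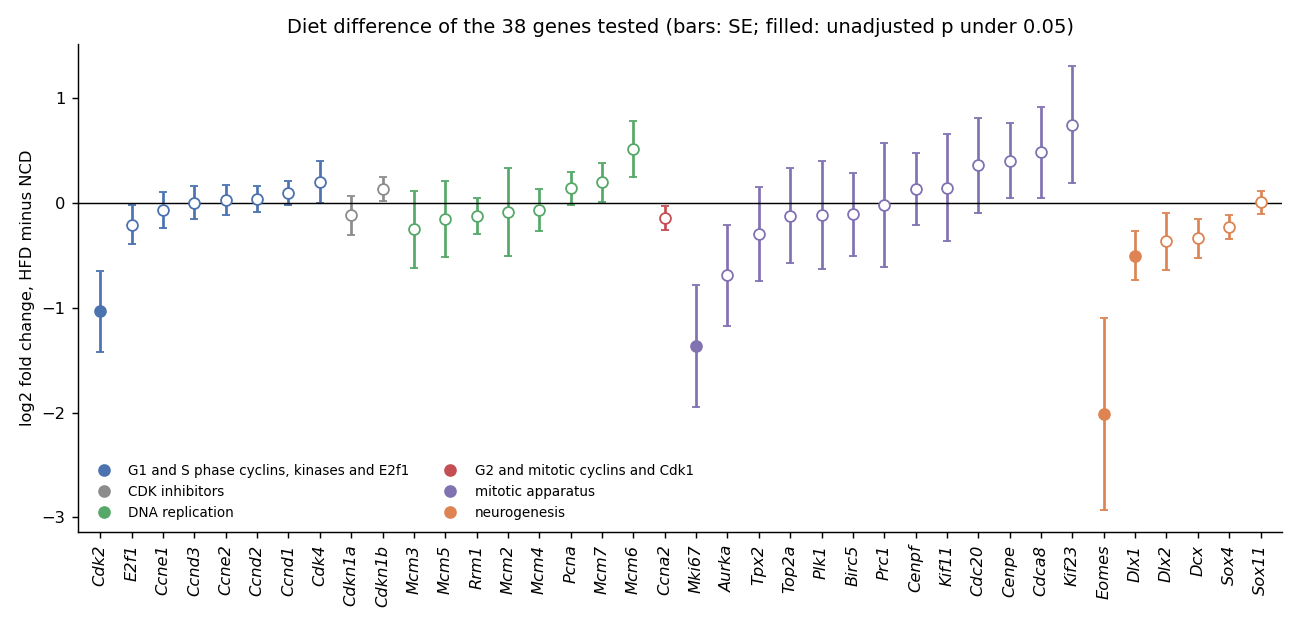
Log2 fold change, HFD minus NCD (y axis), of the 38 genes tested, by role, with standard errors as bars. Filled points mark Cdk2, Mki67, Dlx1 and Eomes, which had an unadjusted p under 0.05, and no gene above 0 is filled.

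The diets did not overlap in 3 genes that were lower on the HFD (Cdk2, Ccna2 and Sox4, background 4.49%) and in 2 that were higher (Cdkn1b and Mcm6, background 4.31%). Aspm, under the count filter, was also lower in all 3 HFD libraries. With 3 libraries against 3, an exact permutation test cannot go below p = 0.1.

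Among the 8 G1 and S phase genes tested, Cdk2 alone had an unadjusted p under 0.05. Cdk2 is the kinase that E and A type cyclins bind to start and sustain DNA synthesis (chr10:128697939-128705031, minus strand). It had 27, 33 and 26 counts with NCD against 12, 10 and 14 with HFD, or 3.205 ± 0.423 CPM against 1.58 ± 0.434 CPM (mean ± SD, n = 3 each). Every HFD library lay under every NCD library. The log2 fold change was -1.03 (SE 0.39) with an unadjusted p of 0.0168 and an adjusted p of 0.979 (edgeR). The unadjusted p went to 0.0568 without NCD replicate 2 and to 0.0896 without HFD replicate 2, and ran from 0.0174 to 0.0432 with any other library left out. Pmel, which shares 34 exon bases with Cdk2 on the opposite strand, had a log2 fold change of -0.19 (SE 0.25).

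The D and E type cyclins gave close values on both diets, while cyclin A2 (Ccna2) is given below with the G2 and mitotic cyclins. Ccnd2, the D type cyclin with the most tags, had 930, 882 and 1306 counts with NCD against 834, 1094 and 849 with HFD, a log2 fold change of 0.04 (SE 0.13). The E type cyclins, which pair with Cdk2, differed by -0.06 (SE 0.17) for Ccne1 and 0.03 (SE 0.14) for Ccne2. E2f1, the factor that switches on S phase genes, had a log2 fold change of -0.21 (SE 0.19), and Cdk4, the partner of the D cyclins, 0.20 (SE 0.20). The 9 genes summed to 294 ± 39.5 CPM with NCD and 301 ± 5.5 CPM with HFD (n = 3 each).

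Of the CDK inhibitors, Cdkn1b (p27) had 380, 461 and 473 counts with NCD against 364, 483 and 405 with HFD. In CPM, which takes out the depth, all HFD libraries lay above all NCD libraries, 53.5 ± 1.79 against 48.7 ± 1.66 CPM (n = 3 each), a log2 fold change of 0.13 (SE 0.11). Cdkn1a (p21), the inhibitor that p53 induces, had 110, 171 and 194 counts with NCD against 121, 166 and 94 with HFD, and the diets overlapped.

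Among the DNA replication genes, no gene passed an unadjusted p of 0.05. Mcm6, a subunit of the MCM2-7 helicase that opens the DNA, came nearest. It had 27, 49 and 48 counts with NCD against 52, 60 and 41 with HFD, or 4.55 ± 1.07 against 6.55 ± 0.924 CPM (n = 3 each), with all HFD libraries above all NCD libraries in CPM. Its log2 fold change was 0.52 (SE 0.27) with an unadjusted p of 0.0748. The log2 fold changes of the other 5 helicase subunits ran from -0.25 for Mcm3 to 0.20 for Mcm7. Pcna, the sliding clamp of the polymerases and the member of this group with the most tags, had 180, 169 and 167 counts with NCD against 131, 188 and 178 with HFD. Rrm2, the S phase subunit of ribonucleotide reductase, had the fewest, with 9, 14 and 9 with NCD against 4, 6 and 12 with HFD. The diets overlapped for both.

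The G2 and mitotic cyclins and Cdk1 were near the limit of detection apart from Ccna2, cyclin A2. Ccna2 had 374, 450 and 442 counts with NCD against 301, 375 and 319 with HFD, 47.01 ± 1.26 against 42.7 ± 1.53 CPM (n = 3 each). The groups did not overlap, but the log2 fold change was -0.14 (SE 0.11) with an unadjusted p of 0.235. Its partner in mitosis, Cdk1, had 2, 5 and 12 counts with NCD against 5, 3 and 8 with HFD. Ccnb2, cyclin B2, had 0, 7 and 9 with NCD against 1, 3 and 2 with HFD. The 44.8 CPM of Ccna2 stood against 0.41 to 0.70 CPM for Cdk1, Ccnb1 and Ccnb2. In the annotation Ccna2 shares 510 exon bases, 147 of them in its last 500, with Exosc9 on the opposite strand, a gene of the RNA exosome at 51.5 CPM. As the use of strand in the counting is not given in the sources used here, reads of Ccna2 and Exosc9 from the shared bases cannot be told apart in these tables. Exosc9 itself had a log2 fold change of -0.10 (SE 0.11).

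In the mitotic apparatus, 1 of 13 genes tested had an unadjusted p under 0.05. This was Mki67, the proliferation marker Ki-67 that coats mitotic chromosomes (chr7:135689784-135716361, minus strand). It had 16, 10 and 26 counts with NCD against 10, 3 and 4 with HFD, or 1.93 ± 0.830 against 0.771 ± 0.588 CPM (n = 3 each). The lowest NCD library and the highest HFD library overlapped. The log2 fold change was -1.36 (SE 0.58) with an unadjusted p of 0.0319 and an adjusted p of 0.979 (edgeR). The unadjusted p was 0.0658, 0.152, 0.16 and 0.0969 without NCD replicate 1, NCD replicate 3, HFD replicate 2 and HFD replicate 3 in turn. It was 0.0169 without NCD replicate 2 and 0.00897 without HFD replicate 1.

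Aspm, a spindle pole protein needed for symmetric divisions of neural progenitors (chr1:139454772-139494091, plus strand), had 9, 8 and 14 counts with NCD against 1, 6 and 2 with HFD. The diets did not overlap, and the log2 fold change without the filter was -1.58 (SE 0.82) with an unadjusted p of 0.0549 and an adjusted p of 0.941. Without HFD replicate 2 its unadjusted p was 0.0318, and it ran from 0.0574 to 0.168 with any other library left out. These p-values come from fits without the filter, which can understate the spread between libraries. Aspm and Cdk2 are named in the text of the study on these same libraries, so that their direction here is no separate evidence.

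Other mitotic genes went in both directions, with no unadjusted p under 0.05. Kif23, a kinesin of the midbody, had 9, 11 and 3 counts with NCD against 7, 12 and 15 with HFD, a log2 fold change of 0.75 (SE 0.56). Aurka, the spindle pole kinase, had 13, 18 and 12 with NCD against 5, 8 and 10 with HFD, a log2 fold change of -0.69 (SE 0.49). The checkpoint kinase gene Bub1 had 1, 6 and 5 counts with NCD against 0, 3 and 0 with HFD, and Aurkb, the kinase of the chromosomal passenger complex, 1, 4 and 0 against 0, 0 and 1. Cenpe, the kinetochore kinesin and the gene of this group with the highest mean CPM (2.962, against 2.936 for Cenpf), had 25, 23 and 20 with NCD against 17, 30 and 32 with HFD. Top2a, the topoisomerase that untangles sister chromatids, had a log2 fold change of -0.12 (SE 0.45), unlike Mki67 with which it is commonly used to mark dividing cells, though the difference between them was not tested. Summed over the 18 genes, the level was 27.1 ± 1.35 CPM with NCD and 25.9 ± 2.63 CPM with HFD (n = 3 each), a difference within the spread of the HFD libraries.

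**Figure D4:**
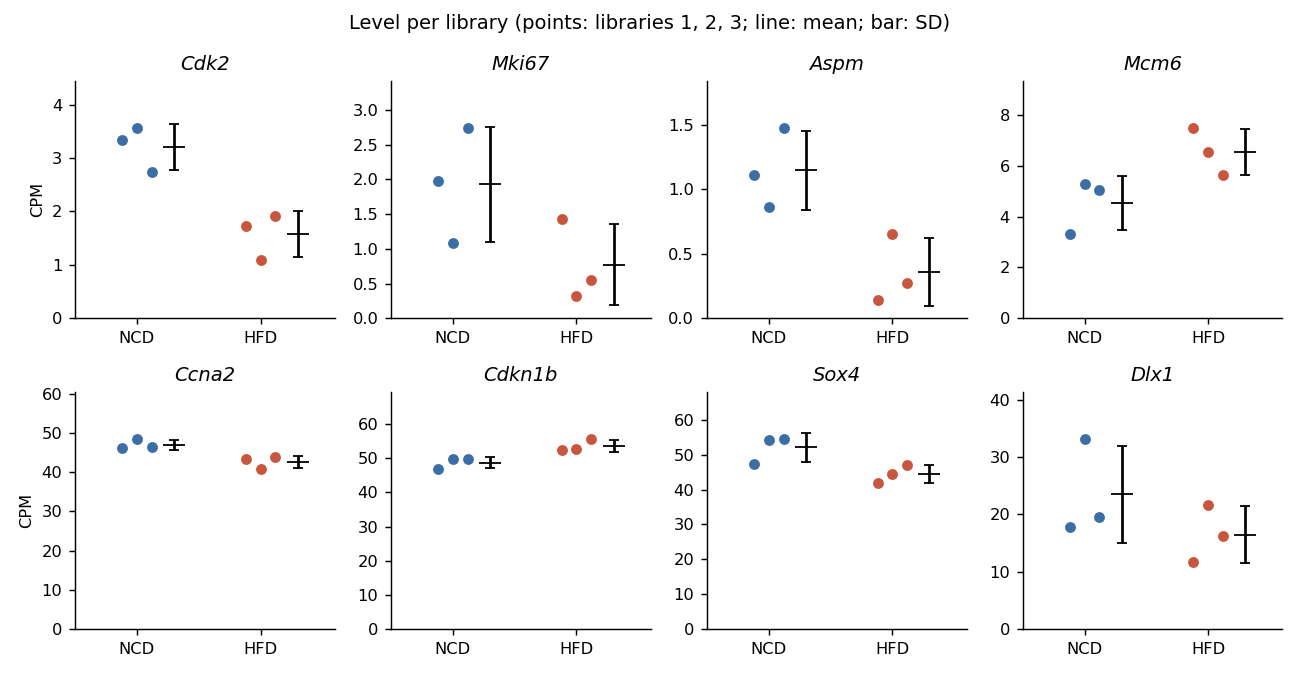
CPM (y axis, from 0) of Cdk2, Mki67, Aspm, Mcm6, Ccna2, Cdkn1b, Sox4 and Dlx1 in each library (points, replicates 1, 2 and 3 from left to right), with the mean and SD beside them. The diets separate for Cdk2, Aspm, Ccna2 and Sox4 (lower on the HFD) and for Mcm6 and Cdkn1b (higher), and overlap for Mki67 and Dlx1.

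Of the 6 neurogenesis genes, Dlx1 and Eomes had an unadjusted p under 0.05, both lower on the HFD. Dlx1, a homeobox factor of interneurons and of neuroblasts bound for the olfactory bulb (chr2:71528113-71533981, plus strand), had 144, 308 and 186 counts with NCD against 81, 198 and 118 with HFD. In CPM the groups overlapped, at 17.8, 33.2 and 19.6 with NCD against 11.6, 21.6 and 16.2 with HFD. The log2 fold change was -0.50 (SE 0.24), under 1.5-fold, with an unadjusted p of 0.0486 and an adjusted p of 0.979. Its close relative Dlx2 had a log2 fold change of -0.37 (SE 0.27), and Dlx1as, antisense to Dlx1 and sharing 335 exon bases with it, one of -0.10 (SE 0.16).

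Eomes (chr9:118478212-118486132, plus strand) had 12, 136 and 18 counts with NCD against 0, 37 and 0 with HFD. Replicate 2 of each diet held most of its counts, and the 2 HFD libraries at 0 allow up to 0.431 and 0.412 CPM. The log2 fold change was -2.01 (SE 0.91) with an unadjusted p of 0.0424 and an adjusted p of 0.979. Leaving out NCD replicate 2 brought the log2 fold change to -0.21 (unadjusted p 0.83), HFD replicate 1 to -1.49 (0.109) and HFD replicate 3 to -1.47 (0.12). Leaving out NCD replicate 1 brought it to -2.46 (0.0147) and NCD replicate 3 to -2.43 (0.0234, edgeR). Without HFD replicate 2 the unadjusted p was 0.000424, but both remaining HFD libraries were then at 0 and no fold is given.

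Tbx21, Cdhr1, Doc2g and Th, used as markers of the olfactory bulb, were like Eomes highest in replicate 2 of each diet. Slc6a3, on the same list, did not follow Eomes, with 7.15, 7.32 and 6.31 CPM with NCD against 8.34, 7.2 and 3.29 CPM with HFD. The list without Eomes (Tbx21, Cdhr1, Doc2g, Th and Slc6a3) summed to 23.2, 60.6 and 28.2 CPM with NCD against 22.1, 37.2 and 10.3 CPM with HFD. Th and Slc6a3 are also on the list of midbrain markers, so this sum is not of the bulb alone. They were at 12.3 and 7.15 CPM in NCD replicate 1 and at 3.57 and 3.29 CPM in HFD replicate 3. Cdhr1, a cadherin of mitral and tufted cells, was at 14.8 CPM in NCD replicate 2 and 9.06 CPM in HFD replicate 2, against 1.48 to 5.05 CPM in the other libraries. Tbx21, the most restricted mitral cell factor of the list, had 2.69 and 1.42 CPM in those libraries, 0.123 CPM in NCD replicate 1 and 0 in the other 3. Of the 4 genes of this list that were tested, Th alone had an unadjusted p under 0.05 (0.016, lower), and Th also marks midbrain dopamine neurons. Other lists also held genes past that threshold, none with an adjusted p under 0.05 (edgeR). Over all genes tested, 1.98% were lower and 1.71% higher at it. Lower on the HFD were 4 of 7 midbrain markers (Slc6a4 at 0.00555, Tph2 at 0.0105, Th and Foxa2). So were all 5 liver transcripts tested (Alb, log2 fold change -2.19), with Serpina1a under the filter. Also lower was 1 of 6 ependymal markers tested (Rsph1, 0.00684), and 4 of 5 erythroid markers were higher. Foxa2, with 0 counts in HFD replicate 3, passed the filter through the NCD libraries. The part of bulb or of any other of these tissues in the values of the neurogenesis genes was not tested. Without NCD replicate 2, Dlx1 had a log2 fold change of -0.17 with an unadjusted p of 0.463 (edgeR). Its unadjusted p was 0.207 without HFD replicate 1 and 0.0845 without HFD replicate 3. It was 0.0168 without NCD replicate 1, 0.0343 without NCD replicate 3 and 0.01 without HFD replicate 2.

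**Figure D5:**
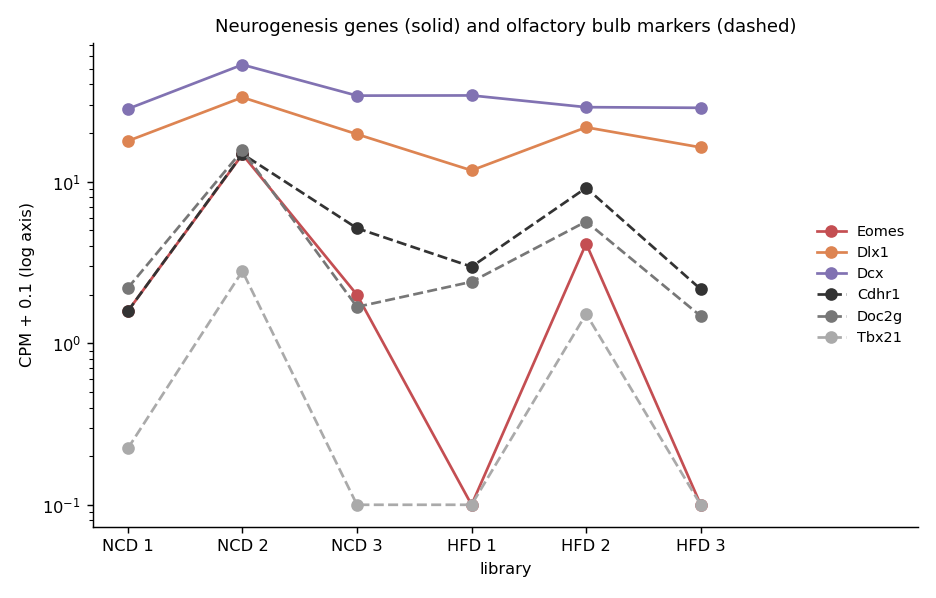
CPM + 0.1 (y axis, log axis) of Eomes, Dlx1 and Dcx (solid lines) and of the olfactory bulb markers Cdhr1, Doc2g and Tbx21 (dashed lines) in the 6 libraries (x axis). Lines join values of 1 gene and carry no order, and NCD 2 is the highest library for all 6 genes.

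Dcx, the microtubule protein of migrating neuroblasts, had 228, 491 and 323 counts with NCD against 237, 264 and 208 with HFD. Its log2 fold change was -0.34 (SE 0.19) with an unadjusted p of 0.0916, and -0.03 without NCD replicate 2. Without NCD replicate 1 the unadjusted p was 0.0137, and it ran from 0.0628 to 0.854 with any other library left out. Sox4, a factor of newly formed neurons (chr13:28948919-28953713, minus strand), had 385, 505 and 518 counts with NCD against 292, 407 and 343 with HFD, or 52.1 ± 4.03 against 44.5 ± 2.55 CPM (n = 3 each). The groups did not overlap, by a narrow margin, and the log2 fold change was -0.23 (SE 0.12) with an unadjusted p of 0.0706. The unadjusted p of Sox4 was 0.0332 without HFD replicate 3 and 0.0526 to 0.194 with any other library left out. Sox4 shares 2616 exon bases with the long noncoding RNA gene Gm26735 on the opposite strand. Sox11, its partner in young neurons, had 693, 714 and 840 counts with NCD against 589, 825 and 562 with HFD, a log2 fold change of 0.01 (SE 0.11). The 6 genes summed to 212 ± 28.5 CPM with NCD and 183 ± 12.3 CPM with HFD (n = 3 each), and the ranges overlapped.

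Other genes of the same pathways were described from 5 lists, beside a background over all genes tested of 1.98% lower and 1.71% higher at an unadjusted p under 0.05 (edgeR). Of 29 further DNA replication genes tested, 0 had an unadjusted p under 0.05, and their median log2 fold change was 0.03. Of 19 further mitotic genes tested, 1 was higher (5.3%) and 0 lower, with a median of 0.02. This was Smc2, a condensin subunit that compacts mitotic chromosomes, with 180, 213 and 187 counts with NCD against 209, 284 and 230 with HFD. In CPM the groups did not overlap (background 4.31% higher), and the log2 fold change was 0.52 (SE 0.13) with an unadjusted p of 0.00128 and an adjusted p of 0.979. Of 21 genes of cell cycle control, which include the retinoblastoma family and the MuvB complex that acts at the CHR, 0 had an unadjusted p under 0.05, with a median of -0.02.

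Of 11 DNA damage checkpoint genes tested 0 had an unadjusted p under 0.05, with a median of -0.17. Chek1, the checkpoint kinase downstream of ATR, was under the filter, with 4, 0 and 3 counts with NCD against 9, 10 and 12 with HFD. Its log2 fold change without the filter was 2.28 with an unadjusted p of 0.00837 and an adjusted p of 0.788. As said above, p-values of that fit can understate the spread between libraries. The study names Chek1 from these libraries, so that its value is not independent evidence. Of 24 further neurogenesis genes tested, 1 was higher (4.2%, background 1.71%) and 0 lower (background 1.98%), with a median of -0.03. This was Nes, the intermediate filament of neural progenitors and of some vessel cells, with 37, 31 and 31 counts with NCD against 44, 62 and 30 with HFD. Its log2 fold change was 0.63 (SE 0.30) with an unadjusted p of 0.049 and an adjusted p of 0.979 (edgeR).

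Oligodendrocyte precursors are the most numerous dividing cells of the adult forebrain, and 8 genes of their lineage gave 0 with an unadjusted p under 0.05 (background 1.98% lower and 1.71% higher). Pdgfra, the growth factor receptor of the precursors, had a log2 fold change of -0.01, and Cspg4 one of -0.14 (SE 0.29). The list is not limited to precursors or to dividing cells, and Olig1 alone averaged 146.6 CPM against 24.0 CPM for Pdgfra. The list summed to 319.6 CPM with NCD and 300.1 CPM with HFD on average, lowest at 247.7 CPM in HFD replicate 3.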

How the data were processed

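Total RNA of 6 forebrain samples was sequenced from QuantSeq 3′ mRNA-Seq libraries as 75-base reads. The authors aligned reads to mm10 with Bowtie2 and counted unique and multiple alignments with bedtools, and they deposited raw counts for 23282 entries per library, of which 79 share a symbol with another entry and none is a member. Strand use and annotation are not given in the sources used here. Library totals were 6842785 to 9689372 counts, and intervals from them cover counting error only. Groups and replicate numbers came from the sample titles.

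The deposited counts were fitted over all genes with edgeR 4.0.16 (R 4.3.3; TMM, filterByExpr at min.count 10 and min.total.count 15, glmQLFit and glmQLFTest), with Benjamini-Hochberg adjustment over 13771 genes. Members under the filter were read from the same fit without it (18936 genes). The members and all gene lists were chosen with earlier results of these data known. Counts in all libraries are printed for members with an unadjusted p under 0.05, a 1.5-fold difference or groups that do not overlap, for the highest and lowest member of each role, and for pathway genes with an unadjusted p under 0.05. Others, such as Dcx, Cdk1 and Top2a, were added after their values were seen, as were the motifs, their distance window, the printed promoters and the window of 500 bases for overlaps. Exon overlaps came from the GENCODE annotation of GRCm38. The fit was also run on counts simulated from its own means and dispersions. Such counts lack transcripts raised in a single library, such as Gh, so that run does not cover them. Alternatives used DESeq2 1.42.0, limma 3.58.1, other scalings and filters, a replicate block and leaving out each library. Replicates of a diet differed beyond sampling noise (chi-square per degree of freedom 3.56 to 16.7), so that no library was counted as a copy.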

Additional observations from a re-analysis of the deposited data

How the results depend on the processing

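The 3 members lower by fold and p became 1 with at least 10 counts in every library (Mki67 and Eomes left the test) and 1 to 3 when a library was left out, with 1 without NCD replicate 2 or without HFD replicate 3. The 4 members lower at an unadjusted p became 2 with that filter, 2 with robust estimation and 1 to 4 with a library left out, with 1 without NCD replicate 2 and 2 without HFD replicate 1, 2 or 3. With quantile normalization and limma, 1 member was higher (Mcm6, unadjusted p 0.0249). Without the count filter, 1 member passed an adjusted p of 0.05 (Eomes, whose adjusted p ran from 0.00494 to 0.9999 over its alternatives), where 23 genes passed in all, against 2 by DESeq2 and 3 without NCD replicate 3. By library size alone, 1 member was separate and higher. Of 688 member values under alternatives, 663 kept their side of the threshold, 17 lost and 8 gained an unadjusted p under 0.05, and no called value changed sign. Among uncalled values, 21 members changed sign under at least 1 alternative. The scalings moved the median of all genes to -0.0225 at most.

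Deviations from the diet mean correlated little between libraries of the same number (-0.0389, 0.0312 and -0.0746 for numbers 1, 2 and 3). That does not show that same-numbered libraries share nothing in handling. Akap5 and Rn45s, which took large shares of the counts, were highest in replicate 3 of both diets. Akap5 took 2.6% there with NCD and 2.7% with HFD, and Rn45s 7.35% and 8.75%. Shared handling was not tested. With the replicate block, 4 members were lower at an unadjusted p and 371 genes passed it in all, against 507 without the block. At these counts the SE of a log2 fold change was 0.34 to 0.59 over the 13 mitotic apparatus genes tested, which limits what the depth could show.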

Other observations

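Genes near the 3′ end of a neighbour were common among the members with many tags. Of the 18 members with at least 10 CPM, 7 shared bases within their last 500 exonic bases with a gene on the opposite strand, against 3 of the 30 members under 10 CPM. The share over all genes was not counted. Ccnd1 shared all 500 such bases with LTO1 (80.9 and 8.66 CPM on average), and Cdk4 all 500 with Tspan31 (11.6 and 18.5 CPM). Besides Ccna2 and Exosc9, Ccnd3 shared 361 such bases with Bysl, a gene at 50.2 CPM in NCD replicate 1 where Ccnd3 was at 25.6 CPM, and Ccne2 shared 304 with Ints8. The part of neighbouring transcripts in these levels was not tested. The threshold of 10 CPM was chosen after the values were seen.

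Among neurogenesis genes outside the 48, Sp8, a factor of olfactory bulb interneurons, followed the libraries in which Eomes was high, with 1.36, 6.35 and 1.16 CPM on the NCD and 1.15, 2.95 and 0.686 CPM on the HFD. Sp9, its close relative, had 3.7, 8.08 and 2.84 CPM on the NCD and 3.88, 5.78 and 5.76 CPM on the HFD. Tbr1, a factor of deep layer cortical neurons that acts after Eomes in development, was lowest of the NCD libraries in replicate 2 and highest of the HFD libraries in replicate 2, with 125.6, 99.9 and 112.8 CPM on the NCD and 100.6, 111.7 and 88.9 CPM on the HFD.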
